A study of Rattus norvegicus with 5 samples.

Results

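Hearts of rats 10 days after transverse aortic constriction (TAC day 10) were compared with hearts of rats 5 days after the same surgery (TAC day 5), which asks how microRNA levels differed across the first interval sampled after constriction. The members were chosen by sample and by name: the TAC day 10 and TAC day 5 arrays, 2 of the 5 arrays of the series, and on them all 678 rat microRNAs whose name begins with rno-. TAC narrows the aortic arch between the carotid arteries and loads the left ventricle with pressure. Both groups were male SD rats, 6 to 8 weeks old and 200 to 300 g, with no genetic change and no drug treatment named, and both had the constriction, so that the comparison holds no animal without it. The sham array of the series was not used here, and the TAC day 15 and TAC day 20 arrays entered only the scaling and the time courses. RNA from the whole hearts of 5 rats per group was labelled at its 3′ end with the dye Hy3 and hybridized to 1 array, with 4 spots for each microRNA. With 1 array a side there is no spread between hearts, no test across samples and no p-value. Every SE below covers only the 4 spots on each array, which is technical error, and the number of arrays limits the precision.

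MicroRNAs (miRNAs) are short RNAs that guide the Argonaute proteins to messenger RNAs, mostly by pairing of their seed, bases 2 to 8, with the 3′ untranslated region, and so lower the amount or the translation of those messengers. Families of miRNAs share a seed and therefore many targets, and neighbouring genes are often transcribed as 1 primary transcript. In the heart, muscle miRNAs such as miR-1, miR-133 and miR-208 lie in cardiomyocytes, miR-126 lies in endothelium and miR-143 and miR-145 in smooth muscle. In whole-heart RNA, fewer cells of a type and less of a miRNA per cell cannot be told apart.

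The mature sequences that the results turn on are given 5′ to 3′ from RefSeq (build GRCr8), to which 400 of the 678 array names were matched, 128 of them among the 152 miRNAs above the detection floor on both arrays. Array names older than the present arm names were paired with the arm known as the main product. The let-7 family is shown first because its members, which differ by 1 to 4 bases from let-7a, held 4 of the lower values. Capitals mark each base that differs from let-7a.
let-7a: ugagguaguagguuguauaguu
let-7f: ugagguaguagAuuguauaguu
let-7d: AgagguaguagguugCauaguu
let-7c: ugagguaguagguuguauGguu
let-7b: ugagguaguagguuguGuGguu
let-7e: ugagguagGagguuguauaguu
miR-98: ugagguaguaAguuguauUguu
let-7i: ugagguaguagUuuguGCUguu

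The second set holds the miRNAs with the highest and lowest ratios and their nearest relatives, with the seed in capitals. miR-16, miR-195 and miR-322 share a seed, as do miR-23b and miR-23a, and miR-208 and miR-208b-3p.
miR-126: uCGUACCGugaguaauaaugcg
miR-23b: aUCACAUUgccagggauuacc
miR-23a: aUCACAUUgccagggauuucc
miR-143: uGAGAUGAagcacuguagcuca
miR-378: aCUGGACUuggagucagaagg
miR-16: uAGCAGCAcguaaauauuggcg
miR-195: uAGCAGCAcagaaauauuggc
miR-322: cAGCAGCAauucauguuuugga
miR-208: aUAAGACGagcaaaaagc
miR-208b-3p: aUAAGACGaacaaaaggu
miR-331*: gGUCUUGUuuggguuuguu
miR-351: uCCCUGAGgagcccuuugagccuga

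Of the 678 rat miRNAs, 213 were above the detection floor on the TAC day 10 array and 162 on the TAC day 5 array. The floor, set from empty and negative-control spots, was 46.4 units of background-subtracted signal on day 10 and 72.1 units on day 5. On both arrays 152 miRNAs were above it, 61 were above it on day 10 alone, 10 on day 5 alone and 455 on neither. Among the 152, 36 (23.7%) differed by 2-fold or more, a log2 ratio of 1 or more in size. Of these, 14 (9.21%) were higher and 22 (14.5%) were lower on day 10. The median log2 ratio of day 10 over day 5 was -0.24, and the 152 values lay between -2.41 and 2.97. After scaling, the 4 spots on day 10 were all above the 4 on day 5 for 2 miRNAs (1.32%), miR-126 and miR-23b, and all below them for 44 (28.9%), which is 46 of 152 in all (30.3%).

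**Figure D1:**
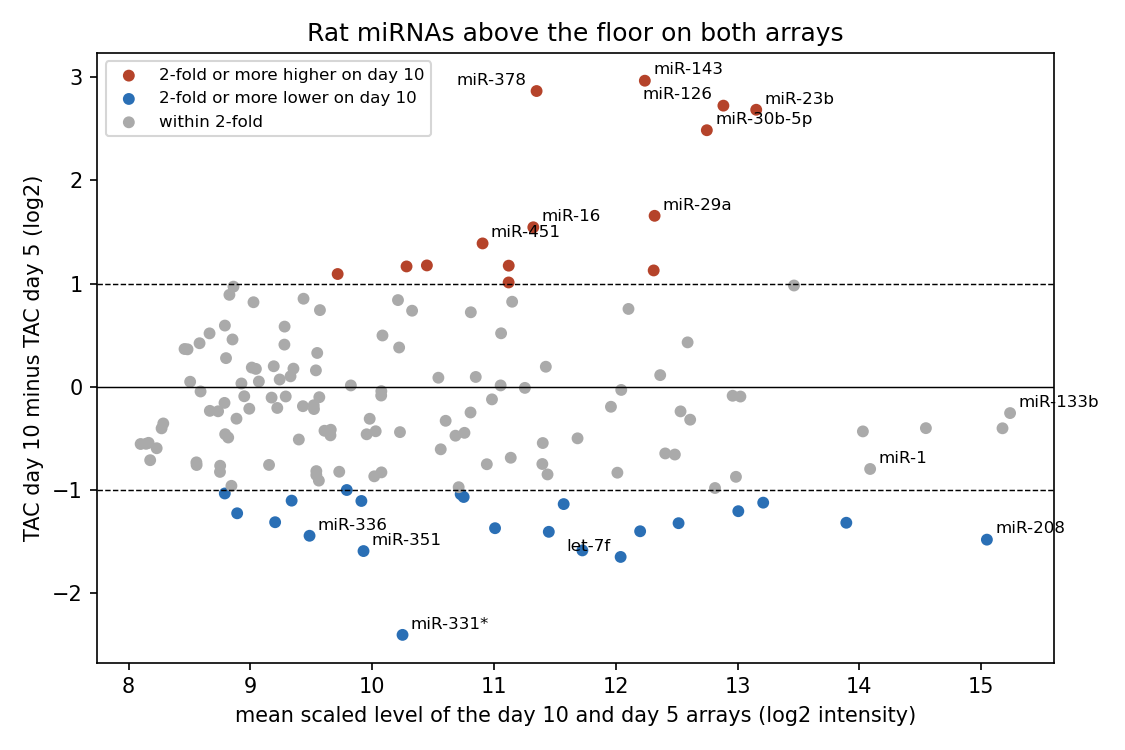
Log2 ratio of TAC day 10 over TAC day 5 (vertical) against the mean scaled level on both arrays (horizontal, log2 intensity) for the 152 rat miRNAs above the floor on both; dashed lines stand at 2-fold. The 5 highest ratios, from 2.49 to 2.97, stand apart from the rest, and miR-331* lies lowest at -2.41.

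The split between higher and lower depended on how the arrays were scaled. With quantile scaling over the rat miRNA spots of the 4 TAC arrays, which gives the counts above, 38.9% of the miRNAs at 2-fold were higher on day 10. When each array was scaled by its median over the 152 miRNAs, 18 were higher and 8 lower, so that 69.2% were higher. Scaling by the control RNAs named as spike-ins gave 16 higher and 12 lower (57.1%), and quantile scaling over all spots other than controls gave 25 higher and 7 lower (78.1%). The median of the 152 log2 ratios was 0 by construction under median scaling, -0.14 under spike-in scaling and 0.19 under quantile scaling over all spots. All 14 higher miRNAs were also at 2-fold under each of these 3 scalings, whereas of the 22 lower ones 8, 12 and 7 were.

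The slide itself differed by position. Each miRNA was printed with 2 spots in blocks 1 to 18 and 2 spots in blocks 19 to 36. Over the 152 miRNAs the later blocks exceeded the earlier ones by a median of 0.81 on the log2 scale on the day 10 array and 0.16 on the day 5 array. The median SD of a miRNA over its 4 spots was 0.52 on day 10 and 0.22 on day 5. 4 spike-ins were printed in every block, and before scaling their log2 ratio of day 10 over day 5 had a median of -0.70 in blocks 1 to 18, -0.45 in blocks 19 to 28 and 0.91 in blocks 29 to 36. It was 2.95 in block 35, where the median background was 147 units on day 10 and 513.5 units on day 5, while the other blocks had 119 to 178 units on day 10 and 173 to 258 units on day 5. Most ratios of 2-fold or more below are therefore given for both sets of blocks. The sets also differed for many ratios within 2-fold, not all of which are split in the text. In the same direction on both sets of blocks, 14 of the 152 (9.21%) were at 2-fold or more, 2 of them higher and 12 lower. The SE takes the 4 spots as independent although the sets of blocks differed. The part of slide position in the ratios was not tested beyond these values.

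**Figure D2:**
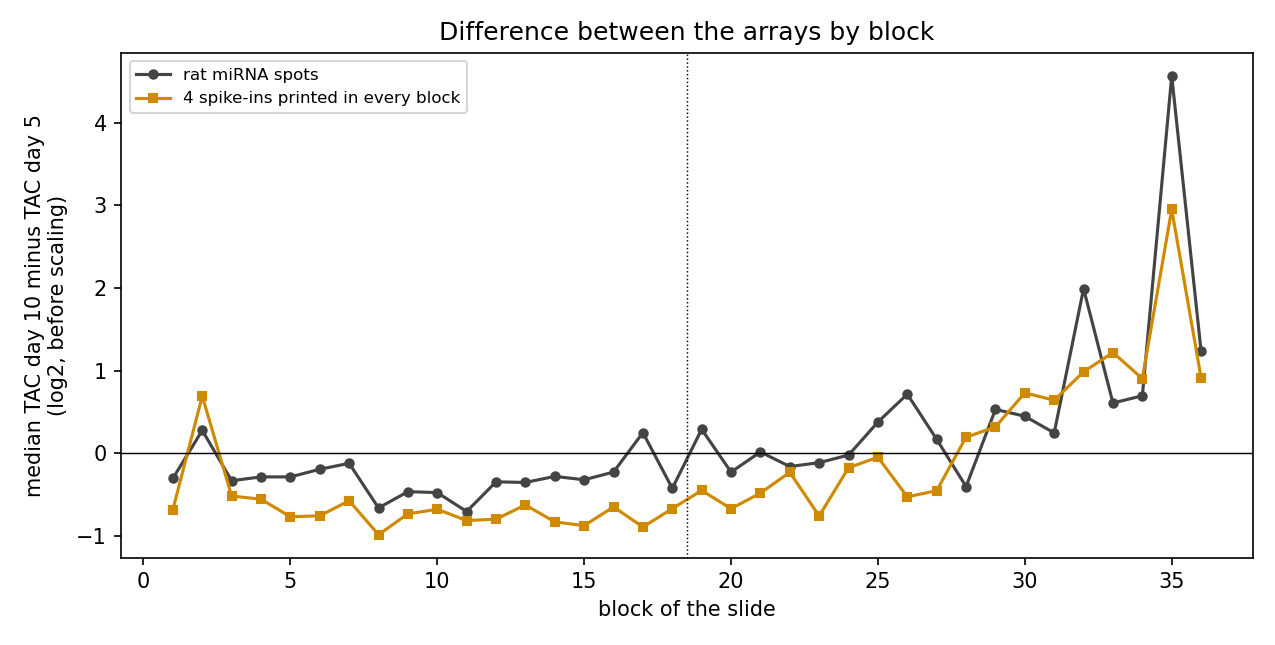
Median log2 difference of TAC day 10 from TAC day 5 before scaling (vertical) in each of the 36 blocks of the slide (horizontal), for the rat miRNA spots and for the 4 spike-ins printed in every block. Both lines lie mostly below 0 in blocks 1 to 18 and above 0 from block 29, with their peaks in block 35, at 4.56 for miRNA spots and 2.95 for spike-ins.

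miR-126 and miR-23b were the 2 miRNAs higher by 2-fold or more in both sets of blocks. miR-126 is the endothelial miRNA that supports VEGF signalling and vessel integrity, and its gene lies in an intron of Egfl7. Its 4 spots read 12443, 4901, 65383 and 65387 units on day 10, against 1810, 2062, 2678 and 3151 units on day 5. Every day 10 spot was thus above every day 5 spot, and the last 2 day 10 spots were at the ceiling of the scanner's scale, so that the ratio may be understated. The log2 ratio was 2.73 ± 0.89 (SE over spots), with 1.65 in blocks 1 to 18 and 3.80 in blocks 19 to 36. Under the 15 alternative settings that apply to a ratio it stayed between 1.32 and 3.80. The mature sequence lies at chr3:29813219-29813240 on the plus strand (GRCr8). miR-126*, from the other arm of the same hairpin, read 1621, 982, 7998 and 6540 units on day 10 and 1138, 1277, 1368 and 1594 units on day 5. Its log2 ratio was 0.82 ± 0.72, with -0.31 in blocks 1 to 18 and 1.96 in blocks 19 to 36, so that the arm is within 2-fold and has no common direction.

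miR-23b, which is transcribed with miR-27b and miR-24 and is known from work on vessels and on glutamine metabolism, read 13843, 6213, 65408 and 65396 units on day 10, against 2823, 2405, 3174 and 3093 units on day 5. The groups of spots did not overlap, and here too 2 day 10 spots were at the ceiling. The log2 ratio was 2.69 ± 0.83, with 1.50 in blocks 1 to 18 and 3.87 in blocks 19 to 36, and it stayed between 1.34 and 3.87 under the alternatives. Its paralog miR-23a differs from it by 1 base, A19U counted from the 5′ end of miR-23b. miR-23a read 5683, 3506, 5841 and 9179 units on day 10 and 1523, 1605, 6711 and 7514 units on day 5, and its log2 ratio was 0.11 ± 0.88. The miR-23a spots disagreed between blocks, with 1.16 in blocks 1 to 18 and -0.94 in blocks 19 to 36. How far the probes of the pair also bind the other miRNA was not tested. The neighbours of miR-23b were within 2-fold, at -0.24 ± 0.47 for miR-27b and 0.43 ± 0.70 for miR-24. Both changed sign between block 1 and block 19, where miR-27b was at -0.73 and 0.25 and miR-24 at -0.83 and 1.69. The same mature miR-24 is also encoded beside miR-23a and miR-27a, so its signal cannot be assigned to 1 cluster.

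**Figure D3:**
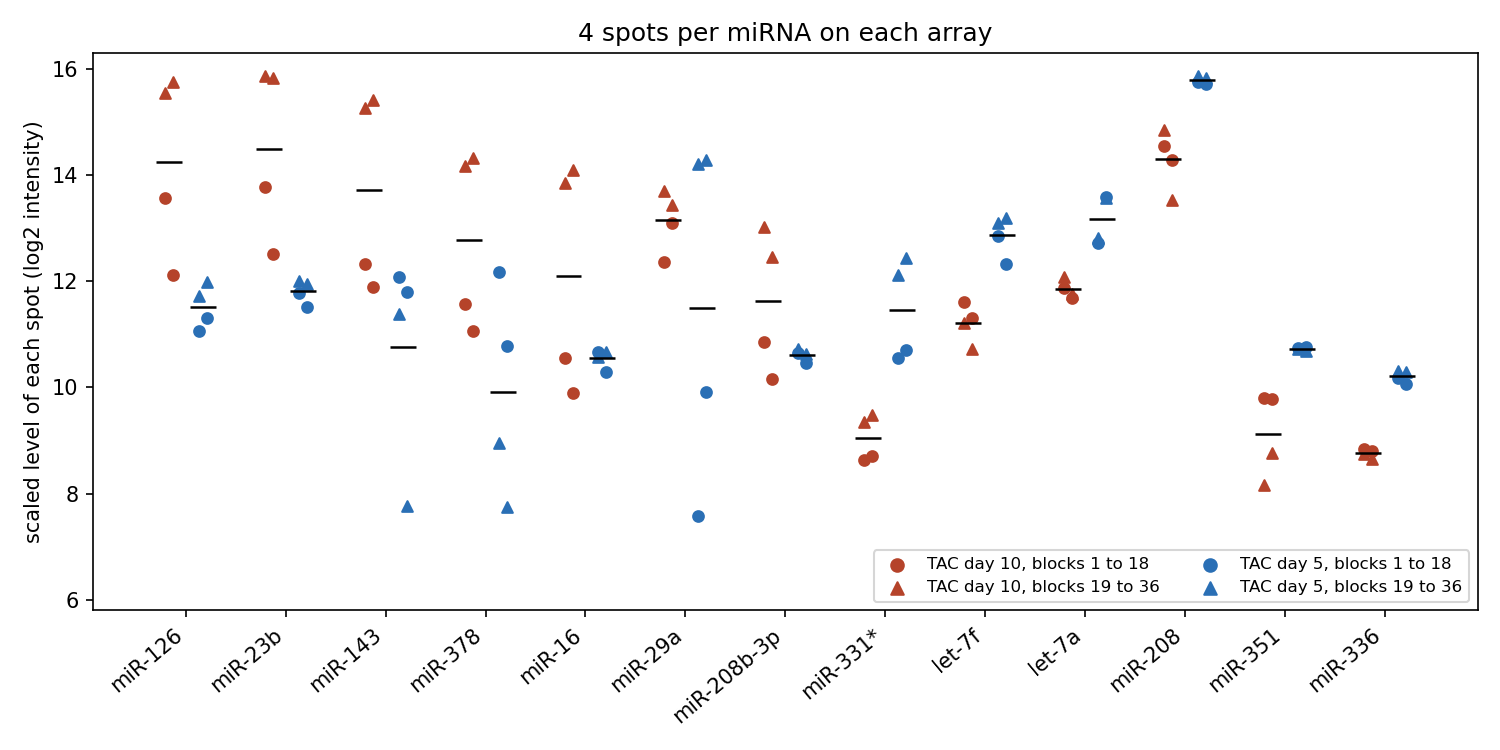
Scaled level (log2 intensity, vertical) of each of the 4 spots of 13 miRNAs on the TAC day 10 array (left in each pair) and the TAC day 5 array (right), with circles for blocks 1 to 18, triangles for blocks 19 to 36 and a bar at the mean. For miR-126 and miR-23b all day 10 spots lie above all day 5 spots, while for miR-143, miR-378 and miR-16 the circles of the arrays lie close together.

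The other 12 miRNAs at 2-fold or more higher had spots that overlapped between the arrays after scaling. 10 of the 14 higher miRNAs had their later spots in blocks 29 to 36, as had 77 of the 152. miR-143, which with miR-145 keeps vascular smooth muscle cells in the contractile state, had the highest ratio, 2.97 ± 1.38. Its spots read 5478, 4038, 49846 and 55484 units on day 10 and 3356, 2856, 2181 and 16 units on day 5. The log2 ratio was 0.17 in block 17 and 5.77 in block 35. miR-145, encoded beside it (both within chr18:57369983-57371453, minus strand, GRCr8) but printed in other blocks, read 1918, 1915, 5357 and 4596 units on day 10 and 1667, 2248, 2040 and 2644 units on day 5. Its log2 ratio was 0.19 ± 0.39, made of -0.29 in block 16 and 0.67 in block 34.

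miR-378, which lies in the gene of the metabolic coactivator PGC-1β, read 3115, 2249, 21542 and 26207 units on day 10, against 3405, 1417, 190 and 15 units on day 5. Its log2 ratio of 2.87 ± 1.30 was made of -0.16 in block 17 and 5.89 in block 35. miR-30b-5p, of a family abundant in heart muscle, had a log2 ratio of 2.49 ± 1.18, with 0.04 in block 17 and 4.94 in block 35. For both, as for miR-143, the spots of block 17 alone do not differ by 2-fold. When block 35 was left out, 11 miRNAs stayed at 2-fold or more higher and 22 at 2-fold or more lower.

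The miR-15/16 family, whose members restrain the cell cycle and target the survival gene BCL2, had 3 of 5 members above the floor on both arrays, all 3 higher by 2-fold or more, where 9.21% of all 152 were. Their median log2 ratio was 1.18, against -0.24 over all 152. miR-16 read 1456, 867, 14348 and 18934 units on day 10 and 1222, 741, 1089 and 1220 units on day 5, a log2 ratio of 1.55 ± 1.09. miR-195, known to enlarge the mouse heart when overexpressed, read 600, 181, 7239 and 9705 units on day 10 and 509, 395, 451 and 526 units on day 5, a log2 ratio of 1.18 ± 1.16. Both were high on day 10 in blocks 31 and 32 only: in blocks 1 to 18 the log2 ratio was -0.26 for miR-16 and -0.75 for miR-195. miR-322, the rodent form of human miR-424, read 1759, 726, 3061 and 2849 units on day 10 and 349, 244, 557 and 596 units on day 5. Every day 10 spot was above every day 5 spot in signal units. The log2 ratio over all spots was 1.17 ± 0.46, made of 0.96 in block 18 and 1.37 in block 36. The family's median was -0.26 in blocks 1 to 18 and 3.10 in blocks 19 to 36.

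Some higher values came from the earlier blocks alone. miR-29a, of a family that represses collagen and other matrix genes, read 5710, 8555, 13397 and 11136 units on day 10 and -7, 487, 10435 and 10805 units on day 5. The first 2 day 5 spots, in block 2, were far below the other 2, and the log2 ratio of 1.66 ± 1.68 was 3.99 in blocks 1 to 18 and -0.67 in blocks 19 to 36. Its relative miR-29c, which differs from it by 1 base (C10U from the 5′ end of miR-29a), was at -0.32 ± 0.27 and miR-29b at -0.43 ± 0.33. miR-30e was at 1.13 ± 1.51, with 2.12 in block 2 and 0.14 in block 20. In block 2 it read 7152 and 5175 units on day 10, against 5292 and -20 units on day 5. The 2.12 thus rests on 1 day 5 spot. The spike-ins of block 2, at 0.69, were the only ones above 0 in blocks 1 to 18.

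**Figure D4:**
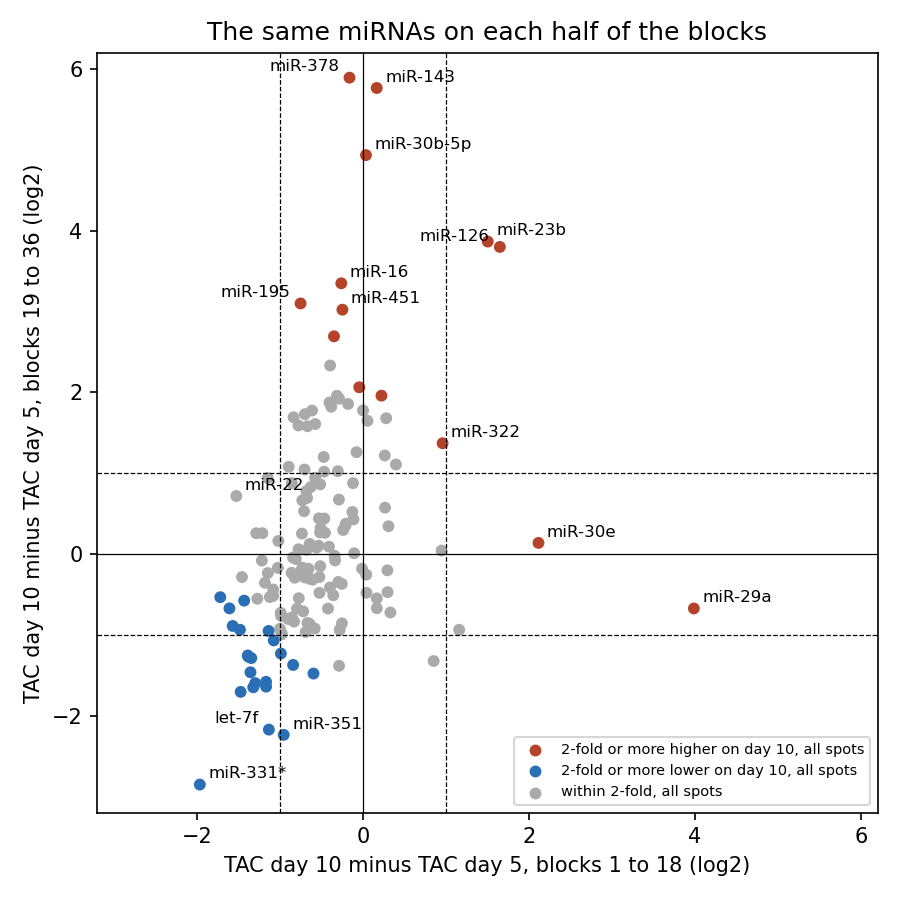
Log2 ratio of TAC day 10 over TAC day 5 from the spots of blocks 1 to 18 (horizontal) and from those of blocks 19 to 36 (vertical) for the 152 miRNAs; dashed lines stand at 2-fold. miR-126 and miR-23b are the 2 miRNAs beyond 2-fold higher on both axes, and 12 lie beyond 2-fold lower on both.

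Among the lower miRNAs, miR-331* stood lowest. Its name, with an asterisk, marks it as the minor strand of miR-331. Its spots read 200, 224, 472 and 523 units on day 10, against 1074, 1287, 3363 and 3845 units on day 5. No spot overlapped, and the log2 ratio was -2.41 ± 0.53, with -1.96 in blocks 1 to 18 and -2.85 in blocks 19 to 36. Of the 22 lower miRNAs it was the one that stayed at 2-fold or more under every one of the 15 alternatives. Its level was also low later, with means of 2392, 355, 305 and 432 units at days 5, 10, 15 and 20. The mature sequence of miR-331* lies at chr7:30414457-30414475 on the minus strand (GRCr8). miR-331, from the other arm of the same hairpin, was not lower in this way. In block 14 its scaled levels (log2) were 8.38 and 8.19 on day 10, against 8.56 and 8.00 on day 5. In block 32 they were 10.05 and 10.47, against 8.16 and 8.81. On day 5 all 4 spots of miR-331* were above the 4 of miR-331, so the arm named minor was the brighter one there. How far the 2 probes can be compared was not tested.

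Of the 8 members of the let-7 family, which repress RAS and other growth genes, 4 were lower by 2-fold or more (50%, against 14.5% of all 152), 0 were higher and 4 were within 2-fold. The family's median log2 ratio was -0.62, against -0.24 over all 152 miRNAs. let-7f read 3141, 2800, 2620 and 1661 units on day 10 and 4462, 3579, 5059 and 5274 units on day 5, so that every day 10 spot was lower. Its log2 ratio was -1.65 ± 0.27, with -1.13 in blocks 1 to 18 and -2.17 in blocks 19 to 36. let-7a read 4004, 3395, 4740 and 3633 units on day 10 and 4233, 6554, 4355 and 6375 units on day 5. These signals overlap, and the log2 ratio was -0.43 before scaling between arrays and -1.33 ± 0.25 after quantile scaling. In blocks 15 and 33 it was at -1.38 and -1.27. let-7d was at -1.21 ± 0.24, with -1.48 in block 10 and -0.94 in block 28. let-7c was at -1.13 ± 0.41, with -1.72 in block 13 and -0.53 in block 31, although the mean signal of let-7c was 7456 units on day 10 and 7189 units on day 5.

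The let-7 values depended on the scaling. Under median scaling let-7f was at -0.92, let-7a at -0.51, let-7d at -0.28 and let-7c at -0.18, none of them at 2-fold, and under spike-in scaling let-7f alone was, at -1.06. The family's median was -0.07 under median scaling, -0.21 under spike-in scaling and -0.25 under quantile scaling over all spots. When each block was scaled by its own 4 spike-ins, a setting added after the data were seen, it changed sign to 0.35 beside a median of 0.30 over all 152. let-7f was the lowest member under each of those scalings. In the quantile scaling used throughout, the 4 members within 2-fold were let-7b at -0.12, let-7e at -0.09, miR-98 at 0.09 and let-7i at 0.52. let-7a, let-7f and let-7d have genes in 1 cluster (chr17:16320133-16322357, plus strand, GRCr8), but the same mature let-7a is also encoded beside miR-100 and the same mature let-7f beside miR-98, so their signal cannot be assigned to 1 cluster. The minor strands of the cluster were at -0.49 for let-7d* and 0.05 for let-7f-1*. let-7f lies 1 base from let-7a (G12A), as do let-7c (A19G) and let-7e (U9G), so probes of the family may share signal. How much they do was not tested.

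The muscle-enriched list had 7 of 8 members above the floor on both arrays, with 1 lower and 1 higher by 2-fold or more and a median of -0.40. Each count is 14.3% of the 7, beside 14.5% lower and 9.21% higher over all 152, whose median was -0.24. The lower one was miR-208, which lies in an intron of the α-myosin heavy chain gene Myh6. It read 31675, 24509, 39243 and 12210 units on day 10 and 36548, 33502, 44048 and 40685 units on day 5. In signal units these spots overlap, while after scaling they did not and the log2 ratio was -1.48 ± 0.28, with -1.32 in block 5 and -1.65 in block 23. It was -0.72 under median scaling, -0.86 under spike-in scaling and -1.02 under quantile scaling over all spots, and it changed sign to 0.12 when each block was scaled by its own spike-ins. Its mean at days 5, 10, 15 and 20 was 38696, 26909, 41449 and 40949 units, lowest at day 10. In block 5 alone day 15 was lowest, at 13443 and 21611 units. The day 15 spots of block 23, at 65371 and 65372 units, were near the ceiling of the scale.

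The higher one was miR-208b-3p, from an intron of the β-myosin heavy chain gene Myh7, which fetal and stressed hearts use. It read 1794, 1189, 8173 and 5963 units on day 10 and 1173, 960, 1305 and 1155 units on day 5. In signal units each day 10 spot was above its partner on day 5. The log2 ratio was 1.01 ± 0.67, with -0.04 in blocks 1 to 18 and 2.06 in blocks 19 to 36. Over the stretch that RefSeq gives, it differs from miR-208 by 3 bases, G10A, A16G and C18U from the 5′ end of miR-208.

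The 5 other muscle members were within 2-fold. miR-1, which restrains growth of cardiomyocytes, was at -0.80 ± 0.16 and its relative miR-206 at -0.84 ± 0.29. miR-133a and miR-133b, the brightest miRNAs over the pair of arrays, were at -0.40 ± 0.18 and -0.26 ± 0.19. Their signals were higher on day 10: miR-133b read 39333, 38073, 58023 and 53535 units on day 10 and 27502, 28311, 24830 and 27385 units on day 5. The median of the muscle list thus changed sign with the scaling, to 0.55 under median scaling, 0.41 under spike-in scaling and 0.15 under quantile scaling over all spots. miR-499, from the myosin gene Myh7b, was at 0.50 ± 1.07.

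The remaining lower miRNAs whose spots did not overlap included several that are minor strands or are little known in heart. miR-351, a rodent miRNA with the seed of miR-125, read 764, 751, 91 and 239 units on day 10 and 1341, 1380, 1311 and 1264 units on day 5, a log2 ratio of -1.60 ± 0.40. This was made of -0.95 in block 6, within 2-fold, and -2.24 in block 24. miR-351 and miR-331* were the 2 of the 22 that were still at 2-fold when each block was scaled by its own spike-ins, at -1.04 and -2.22. miR-336 read 260, 250, 230 and 206 units on day 10 and 647, 574, 757 and 741 units on day 5, with little scatter and a log2 ratio of -1.45 ± 0.07. miR-325-3p was at -1.59 ± 0.21, miR-138-1* at -1.41 ± 0.10, miR-138-2* at -1.40 ± 0.17 and miR-743b at -1.37 ± 0.12. These 4 had day 10 means of 2049, 1668, 3045 and 1303 units, against day 5 means of 3910, 3412, 4665 and 2671 units. miR-207 was lower at -1.32 ± 0.44, and it was the 1 lower miRNA whose spots overlapped. miR-336 and these 5 were each lower by 2-fold or more in both sets of blocks.

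By cell type, the other marker lists were within 2-fold or rested on the later blocks. The leukocyte list had 5 of 8 members above the floor on both arrays, all within 2-fold, with a median of -0.09. Among them were miR-142-3p at -0.03 ± 0.41 and miR-150, abundant in lymphocytes, at -0.09 ± 0.67. Its other 3 members, including miR-146a and miR-223, were above the floor on day 10 alone. The summed signal of the leukocyte list, before scaling, was 9737 units on day 10 and 5255 units on day 5. The same sum over all 678 rat miRNAs was also higher on day 10, at 644168 units against 355771 units. The fibroblast and mesenchymal list had 5 of 8 members on both arrays and none at 2-fold. miR-21, raised in cardiac fibroblasts under stress, read 3701, 2506, 6549 and 6967 units on day 10 and 4607, 3904, 4353 and 4227 units on day 5, a log2 ratio of -0.65 ± 0.38 that was -0.01 under median scaling. miR-199a-5p was at 0.74 ± 0.71, miR-199a-3p at -0.51 ± 0.45 and miR-214 at -0.10 ± 0.54.

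The erythroid pair behaved differently on the 2 sets of blocks. miR-451, which is abundant in red cells, read 1305, 623, 8544 and 10945 units on day 10 and 628, 730, 692 and 705 units on day 5. The log2 ratio was 1.39 ± 0.96, with -0.25 in block 15 and 3.02 in block 33. miR-144, encoded beside it (chr10:63459397-63459640, plus strand, GRCr8), was at -0.43 ± 0.34. Its mean signal was 455, 588, 6248 and 5116 units at days 5, 10, 15 and 20. The part of blood in these values was not tested. Of markers of other organs, the liver miRNA miR-122 and all 5 members of the epithelial miR-200 family were below the floor on both arrays, and of the 4 neuronal miRNAs, 2 were above it on both and within 2-fold.

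**Figure D5:**
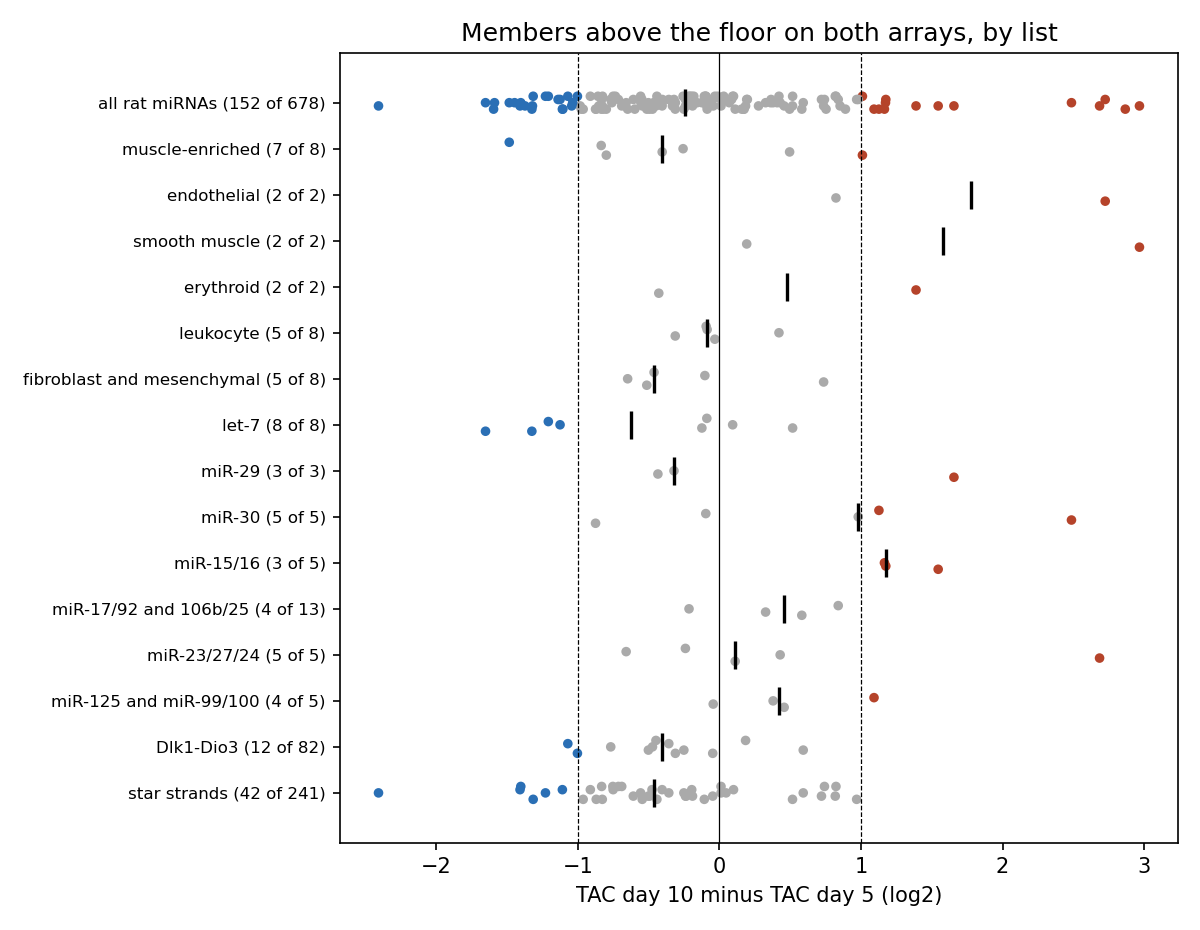
Log2 ratio of TAC day 10 over TAC day 5 (horizontal) of each miRNA above the floor on both arrays, by list (rows; in brackets, how many members of how many on the array), with a bar at each list's median and colour beyond 2-fold. The miR-15/16 row has its 3 members above 2-fold, 4 of the 8 let-7 members lie below it, and no minor strand lies above it.

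Among the remaining families, miR-30 had all 5 members on both arrays, with a median log2 ratio of 0.98, against -0.24 over all 152. That median was 0.04 from the earlier set of blocks alone and 0.26 from the later set alone. Over all 152 these medians were -0.61 and -0.08. miR-30a was at -0.88 ± 0.28. Of the 5 members, 2 (40%) were higher by 2-fold or more, where 9.21% of all 152 were. The 2 were miR-30b-5p, at 2-fold in block 35 but not in block 17, and miR-30e, whose ratio in block 2 holds a day 5 spot at -20 units. miR-30e and miR-30a differ by 1 base (U13C from the 5′ end of miR-30e). The miR-17/92 and miR-106b/25 clusters, which drive proliferation, had 4 of 13 members on both arrays, from -0.21 for miR-19a to 0.84 for miR-19b. miR-99a, of the miR-99/100 family, was at 1.09 ± 0.69, made of 0.22 in block 13 and 1.96 in block 31. The imprinted Dlk1-Dio3 cluster had 12 of 82 members on both arrays, 2 lower (miR-300-5p at -1.07 and miR-1193-3p just past 2-fold, with -1.43 in block 9 and -0.58 in block 27), 0 higher and a median of -0.40. The 2 are 16.7% of the 12, near the 14.5% over all 152. Minor strands, the names with an asterisk, counted 42 on both arrays, of which 0 were higher and 6 were lower. The 6 are 14.3%, near the 14.5% over all 152, and the absence of higher ones stands beside 9.21% over all 152. The minor strands had a median of -0.46, against -0.17 for the 110 other names. For miR-101a, which represses the chromatin gene EZH2, the log2 ratio was 1.17 ± 0.94, with -0.35 in block 4 and 2.69 in block 22. miR-322 and miR-351 come from the same cluster on the X chromosome (chrX:137720933-137726241, minus strand, GRCr8), and were 2.76 apart on the log2 scale, at 1.17 and -1.60.

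The base composition of the mature sequence showed no gradient. The median log2 ratio was -0.26 in 32 miRNAs under 40% GC, -0.09 in 60 from 40 to 50% GC and -0.38 in 36 over 50% GC, and the rank correlation with GC content was -0.06 over 128 miRNAs that share these 2 arrays. The brightest miRNAs held more of the 2-fold values: 10 higher and 10 lower among the 51 brightest, and 0 higher and 5 lower among the 50 dimmest. The offset added to each spot narrows the ratios of dim values by construction, and its part in these counts was not tested.

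miRNAs above the floor on 1 array have only a bound. Of these 71, 14 (19.7%) had a bound of 2-fold or more, 9 higher and 5 lower. Each was set against the lowest scaled level of any miRNA above the floor on the other array, or the miRNA's own if higher. That lowest level was 7.62 (log2) on day 10, where a spot at 46 units, just under the floor, stood at 7.84. On day 5 it was 8.24, and a spot at 71 units stood at 8.28. Against the floor itself the bounds can thus be smaller, and those near 2-fold may fall under it. miR-653* had a bound of 7.65-fold lower on day 10: its spots read 25, 32, -58 and 30 units on day 10, against 969, 1151, 1011 and 1154 units on day 5. Both sets of blocks showed it, and its mean at days 5, 10, 15 and 20 was 1071, 7.25, 33.8 and 75.0 units, so that the day 5 array stands alone. The bound was 4.02-fold lower for miR-539*, 3.57-fold for miR-542-3p, 2.20-fold for miR-291a-5p and 2.07-fold for miR-34c*. Of these, miR-291a-5p overlapped in block 20, with 89 and 76 units on day 10 and 80 and 142 units on day 5. miR-191, a widely expressed miRNA, had a bound of 5.62-fold higher on day 10, with 813, 266, 4201 and 5387 units on day 10 and 41, 45, 151 and 28 units on day 5. The spots did not overlap, and its means at days 5, 10, 15 and 20 were 66.2, 2667, 2537 and 2338 units. The bound was 3.33-fold higher for miR-374, 2.99-fold for miR-146a, which restrains innate immune signalling, 2.81-fold for miR-20a and 2.43-fold for miR-301a. These bounds use all 4 spots, and some rest on the later blocks. miR-20a read 211 and 111 units on day 10 in block 16, against 86 and 73 units on day 5. In block 34 it read 2019 and 2130 units, against 110 and -123 units. miR-374 in block 17 read 253 and 102 units on day 10, against 145 and 83 units on day 5. 5 of the 9 higher bounds, miR-374, miR-146a and miR-301a among them, belong to miRNAs with spots in block 35.

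The later arrays place these values in time, as background-subtracted signals before scaling between arrays. Summed over all 678 rat miRNAs, that signal was 355771 units on day 5 and 644168 units on day 10. miR-126 had mean signals of 2425, 37028.5, 41852 and 45587 units at days 5, 10, 15 and 20, and miR-23b had 2874, 37715, 32780 and 25764 units. For miR-143 the means were 2102, 28711.5, 25413 and 28131 units, and for miR-16 they were 1068, 8901, 7904 and 9427 units. In each of these 4 the day 5 array was the lowest. These means pool both sets of blocks, which gave different courses for miR-16 and miR-143. In block 14 miR-16 read 1222 and 741 units at day 5, 1456 and 867 at day 10, 2464 and 4237 at day 15, and 5636 and 9434 at day 20. In block 17 miR-143 read 3356 and 2856, 5478 and 4038, 14744 and 14666, and 22366 and 32841 units at those days. let-7f had 4594, 2556, 830 and 937 units and let-7a 5379, 3943, 1741 and 1801 units, with day 5 highest and day 10 between. miR-351 had 1324, 461, 806 and 825 units, lowest at day 10. In block 6 alone its lowest array was day 15, with 703 and 663 units beside 764 and 751 units at day 10. No array repeats a time, so that a time and its array cannot be told apart.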

How the data were processed

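Hy3-labelled RNA from rat hearts was read on 1-colour arrays. The deposited raw table holds, for 12312 spots, a foreground intensity and a background-subtracted intensity (per the file headers); no source used here names the scanner or software. The authors' processed table was found, from its values, to hold the ratio of each probe's median background-subtracted signal to an array constant of 1036.5 for TAC day 10 and 733 for TAC day 5. Its scale is linear and uncentred, its medians were 0.243 and 0.360, and it served as an alternative. 2 intensity columns of the raw table whose header matched no sample by name were not used.

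With limma 3.58.1 (R 4.3.3), normexp with an offset of 50 was applied to the foregrounds, followed by quantile normalization over the rat miRNA spots of 4 TAC arrays. Each miRNA's 4 spots were averaged on the log2 scale, and TAC day 10 was set against TAC day 5 with no test. The floor was the median plus 3 MAD (scaled by 1.4826) of empty and negative-control spots. A bound sets the bright array's level against the lowest scaled level of any miRNA above the floor on the other array, or the miRNA's own if higher. It is not set against the floor itself. The correction and quantile scaling were also run on a simulated pair of arrays with known changes. That simulation held no differences in signal between blocks. It therefore cannot show how the steps perform under the differences between blocks seen here.

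The rule named up to 10 highest and 10 lowest miRNAs at 2-fold whose spots did not overlap, the 5 largest bounds in each direction, the 10 brightest, up to 4 of each of 25 lists, miRNAs of cardiac interest and cluster neighbours. Other miRNAs at 2-fold were named after their values were seen. Members and lists were chosen with earlier results of these data known. Lists without a sentence in the report had no member at 2-fold among those above the floor on both arrays. Alternatives changed the scaling, background, offset, spot summary, blocks, floor and threshold, and 3 were added after seeing the data.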

Additional observations from a re-analysis of the deposited data

Results flagged for a closer look

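Signal was present in spots outside the rat miRNA comparison. Of 1900 probes whose name is blank in the deposited table, 442 were above the floor on the TAC day 10 array and 406 on the TAC day 5 array. Of the 379 above it on both, 8 were higher and 46 lower by 2-fold or more after median scaling, with a median log2 ratio of -0.48. Of 23 probes for small nuclear and nucleolar RNAs, 12 were above the floor on the TAC day 10 array and 12 on the TAC day 5 array. The 11 above it on both had a median log2 ratio of -0.01, with 2 higher and 2 lower by 2-fold or more.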

How the results depend on the processing

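No paired analysis was possible because TAC day 10 and TAC day 5 have 1 array each. Of the counts at 2-fold or more (36 in all, 14 higher and 22 lower on TAC day 10), the lower count was 8 under median scaling and 12 under spike-in scaling. Quantile scaling over all spots other than controls gave 25 higher and 7 lower. Plain background subtraction gave 57 in all with 34 higher, values of the authors' processed table gave 65 with 32 higher, and no floor 71 with 43 higher. Blocks 1 to 18 alone gave 5 higher, against 35 from blocks 19 to 36 alone. At 3-fold there were 10, 6 of them higher and 4 lower. Scaling each block by its own spike-ins, added after seeing the data, gave 28 higher and 3 lower. The other settings moved these counts by no more than 1.5 times. Sign changes are named here only where the ratio was at 2-fold or more before or after the change (for list medians, before it). In blocks 1 to 18 alone these were miR-101a (-0.35), miR-16 (-0.26), miR-195 (-0.75), miR-208b-3p (-0.043), miR-378 (-0.16, also without block 35) and miR-451 (-0.25), and the list medians of smooth muscle (-0.060) and miR-15/16 (-0.26). In blocks 19 to 36 alone it was miR-29a (-0.67). With each block's own spike-ins these were let-7d (0.034), miR-208 (0.12) and miR-29b (1.03), with plain subtraction miR-30e (-0.083), and in the authors' processed table miR-22 (1.04, against -0.40). Counting smaller ratios too, of 83 named miRNAs 19 changed sign in blocks 1 to 18 alone, 17 in blocks 19 to 36 alone and 26 with each block's own spike-ins, as did 7, 3 and 6 of 17 list medians. The cause of a change was not tested. miR-126, miR-23b and miR-331* stayed at 2-fold in every one of the 15 settings that apply to a ratio. Bounds were computed in the quantile scaling alone. On TAC day 10, 6 spots were at the ceiling, 2 each of miR-126, miR-23b and miR-22.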
